A study of Mus musculus with 2 samples.

Results

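The small leucine-rich proteoglycans examined here are the products of 9 genes, Dcn, Bgn, Lum, Fmod, Ogn, Omd, Prelp, Aspn and Podn. They were found by symbol in the deposited table, where each stands on 1 row, so they are 9 of 55487 rows. The table holds 2 libraries of MC3T3-E1, a line of osteoblastic cells established from the skull bone of mice. One group was left untreated and the other received parathyroid hormone (PTH) at 10 nM, and both carry the label 1 h. The cells of both groups stood in medium with 10% serum and were plated at 25000 per cm2, 24 h before the hormone was added. With 1 library per group, differences could not be checked against replicates and no p-values were calculated. Because the samples are bulk RNA, fewer cells of a type and less RNA per cell cannot be told apart.

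Small leucine-rich proteoglycans are secreted core proteins built on a curved stack of leucine-rich repeats, and most carry sulfated sugar chains. They bind fibrillar collagen and shape fibril growth and spacing, and several hold or block growth factors such as TGF-beta. In bone they belong to the organic matrix that osteoblasts lay down, and biglycan is known for its part in bone mass. PTH signals to osteoblasts mainly by raising cyclic AMP inside the cell.

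For each of the 9 genes, the scaled count differed by less than 1.5-fold between the 2 libraries. Ratios of scaled counts, PTH over untreated, ran from 0.933 for Ogn to 1.19 for Podn. Of the 9, 0 had a 95% counting interval wholly beyond 1.5-fold higher and 0 beyond 1.5-fold lower, where 5.39% and 3.54% of the 16408 rows compared (total count of 20 or more) did so. The whole interval lay within 1.5-fold either way for 9 of 9, against 61.5% of all rows compared and 89.0% of the 10646 rows with at least as many counts as the lowest of the 9, Omd. The median log2 ratio of the 9 was 0.09, beside 0.00 over all rows compared. These intervals cover counting error only and describe this pair of libraries. When they were widened for an assumed coefficient of variation of 0.2 between cultures, 0 of 9 stayed wholly within 1.5-fold, so with variation of that size these libraries do not bound the ratios within 1.5-fold.

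**Figure D1:**
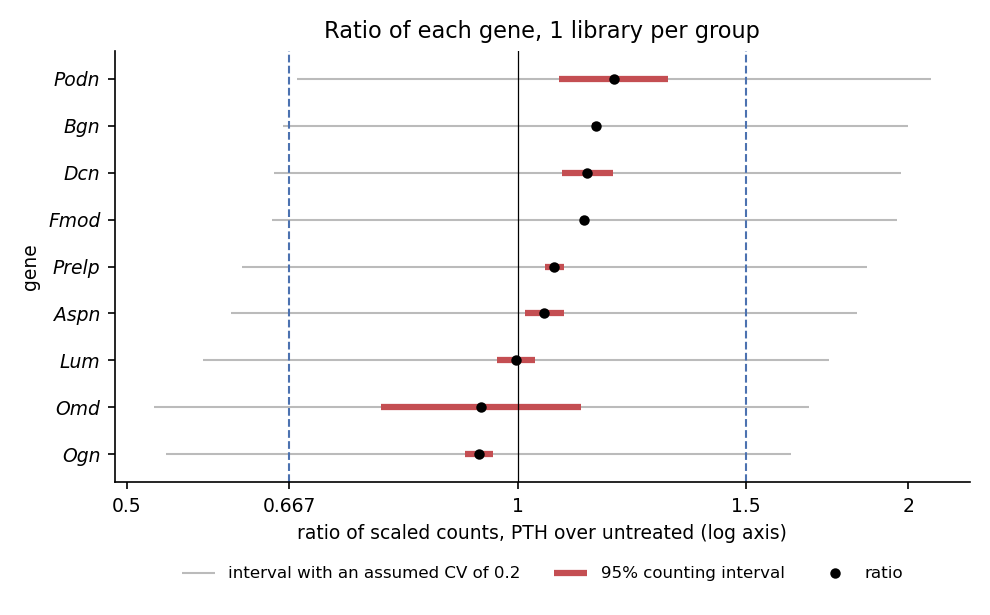
Ratio of scaled counts, PTH over untreated, on a log axis for each gene, with the 95% counting interval (red) and the interval for an assumed coefficient of variation (CV) of 0.2 (grey); dashed lines mark 1.5-fold. All 9 red intervals lie between the dashed lines, from Ogn at 0.933 to Podn at 1.19, while all 9 grey intervals cross 1 of them or both.

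The libraries held 66302211 and 70036872 counts, and the 9 genes took 0.571% of the untreated library and 0.624% of the other. Of 6 genes listed as a check with their earlier values known, 5 (Rgs2, Nr4a2, Crem, Fos and Tnfsf11, but not the receptor gene Pth1r) had more reads beyond 1.5-fold in the PTH library. The share of all rows compared was 5.39%. Tnfsf11 had only 12 counts untreated and 348 after PTH. Because their values were known, these genes are not an independent check. Osteoblast markers were counted for 10 of 10 genes on the list, with a summed level of 35190 CPM (counts scaled to library size) untreated and 37390 CPM after PTH, most of it Col1a1. Counts on this list went down to 28 and 34 for Phex. Of the 10, 1 was beyond 1.5-fold lower after PTH, the osteoblast transcription factor gene Sp7, beside 3.54% of all rows compared. Sp7 was not beyond 1.5-fold with the widened interval (0.240 to 0.730). Markers of adipocytes summed to 0.685 and 0.795 CPM and those of endothelium to 2.20 and 2.72 CPM. Adipoq, Cdh5 and Emcn were listed at 0 in both libraries, while Fabp4 had 34 and 45 counts, Vwf 77 and 95 and Egfl7 62 and 80. Macrophage and osteoclast markers summed to 90.2 and 103.9 CPM, nearly all Ctsk. Adgre1 and Ptprc were listed at 0, while Lyz2 had 201 and 338 counts, Csf1r 122 and 155 and Cd68 67 and 57. Chondrocyte markers summed to 469 and 722 CPM, mostly Col2a1, with Acan at 0 and Matn3 at 470 and 447 counts. Tendon and ligament markers summed to 979 and 1015 CPM, nearly all Tnc. There Tnmd was at 0, while Scx had 1278 and 1145 counts and Mkx 552 and 573. The marker genes of other cell types beyond 1.5-fold were Sox9, at 48.6 and 158.8 CPM, and Cd14, at 0.209 and 2.50 CPM. Sox9 was 1 of 4 genes compared on the chondrocyte list, and Cd14 1 of 5 on its own list. The tendon, adipocyte and endothelium lists had 0 of 5, 0 of 2 and 0 of 2, beside 5.39% higher of all rows compared. With the widened interval, Sox9 (1.874 to 5.695) and Cd14 (5.375 to 25.12) stayed beyond 1.5-fold. Their part in the levels of the 9 genes was not tested.

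Levels were compared between genes per length, as CPM per kb of annotated exon. Fmod, which encodes fibromodulin, stood highest at 812 CPM per kb untreated and 915 after PTH, and Bgn, which encodes biglycan, came next at 346 and 397 CPM per kb. Prelp followed at 107 and 115 CPM per kb and Ogn at 74.1 and 69.2. Lum and Aspn could not be ordered by this measure. Lum was at 41.1 CPM per kb and Aspn at 40.0 untreated, a ratio of 1.03 (0.992 to 1.06), and after PTH Aspn was at 42.0 and Lum at 41.0, a ratio of 1.02 (0.990 to 1.06). Dcn (9.11 and 10.3), Podn (2.67 and 3.17) and Omd (1.72 and 1.61 CPM per kb) stood lowest, and every other neighbour in the order differed beyond its counting interval in both libraries. Fmod was 472-fold above Omd untreated and 567-fold after PTH. Among the 12771 protein-coding genes compared, Fmod ranked 37 untreated and 32 after PTH by level per kb, Bgn 87 and 81, and Omd 9196 and 9275.

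The length used matters for the genes with long alternative exons. With the median length of the annotated coding transcripts in place of all exons, a choice made after the values were seen, Dcn stood at 30.2 CPM per kb untreated and 34.2 after PTH, Bgn at 1057 and 1214, and Fmod at 1471 and 1657. The order of the genes was the same under both lengths in each library, with Aspn over Lum at 1.04 (1.01 to 1.07) after PTH, but the gap from Aspn down to Dcn shrank from 4.39-fold to 1.34-fold untreated.

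**Figure D2:**
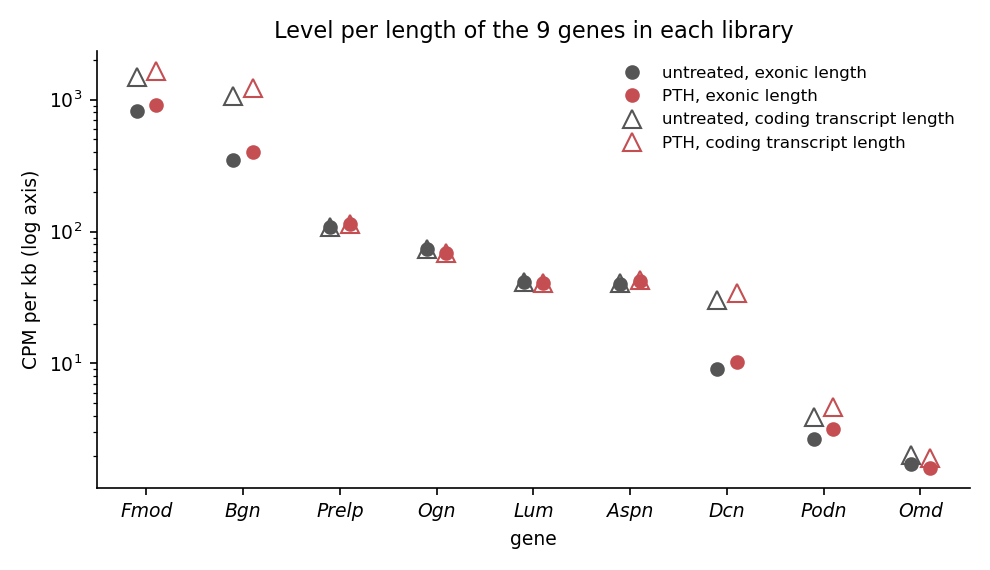
Level of each gene in CPM per kb on a log axis, untreated (grey) and after PTH (red), with the length taken from all annotated exons (filled circles) or from the median coding transcript (open triangles). The 9 genes span from 1.61 to 915 CPM per kb by exonic length, and the pair of circles for each gene nearly coincides.

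The class I genes encode decorin, biglycan and asporin. Bgn, whose product carries chondroitin or dermatan sulfate and is abundant in bone matrix, had 141695 counts untreated and 167644 after PTH, or 2110 and 2424 CPM. Its ratio was 1.15 (1.14 to 1.16), so the PTH library stood higher by more than counting error and by less than 1.5-fold. Dcn, whose product binds collagen fibrils and TGF-beta, had 3570 and 4160 counts, or 53.2 and 60.2 CPM, a ratio of 1.13 (1.08 to 1.18). Aspn, whose product has an aspartate-rich stretch that binds calcium, had 6327 and 6830 counts, or 94.2 and 98.8 CPM, a ratio of 1.05 (1.01 to 1.09). All 3 class I genes thus had slightly more reads in the PTH library. Bgn and Dcn, the closely related pair, stood in nearly the same proportion in both libraries: Bgn had 39.7 counts for each count of Dcn untreated and 40.3 after PTH, a change of 1.01 (0.970 to 1.06) into which no scaling enters.

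The class II genes encode fibromodulin, lumican, PRELP and osteomodulin, some of which can carry keratan sulfate or sulfated tyrosines. Fmod, whose product binds collagen and helps direct its cross-linking, had the most counts of the family, 180329 untreated and 209183 after PTH, or 2685 and 3025 CPM. Its ratio was 1.13 (1.12 to 1.13). Prelp, whose product binds heparan sulfate and anchors basement membranes to collagen, had 26103 and 28694 counts, or 389 and 415 CPM, a ratio of 1.07 (1.05 to 1.09). Lum, whose product shares a collagen binding region with fibromodulin, had 6754 and 6939 counts, which are 100.6 and 100.3 CPM after scaling, a ratio of 0.998 (0.965 to 1.03). Omd, whose product binds hydroxyapatite and was first described in bone, had 260 and 251 counts, or 3.87 and 3.63 CPM, a ratio of 0.938 (0.785 to 1.12). Of the 4, Fmod and Prelp were higher in the PTH library beyond counting error, and the intervals of Lum and Omd held 1. The depth for Omd was the least in the family, and its interval is the widest. Set against each other within a library, Fmod had 26.7 counts per count of Lum untreated and 30.1 after PTH, a change of 1.13 (1.09 to 1.17).

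Ogn, the class III gene, encodes osteoglycin, also called mimecan. It had 12777 counts untreated and 12277 after PTH, or 190.3 and 177.5 CPM, a ratio of 0.933 (0.910 to 0.957), and was the only one of the 9 whose counting interval lay wholly below 1. Podn, the class V gene, encodes podocan, a collagen-binding protein known from smooth muscle and kidney. It had 766 and 936 counts, or 11.4 and 13.5 CPM, and the highest ratio of the 9, 1.19 (1.08 to 1.31). In the proportion of these counts, Bgn went from 11.1 to 13.7 for each count of Ogn, a change of 1.23 (1.20 to 1.26). In all, 6 of the 9 intervals lay wholly above 1, 1 wholly below and 2 held 1. The interval of Aspn also held 1 when counts were scaled by total counts (0.987 to 1.06) or by upper quartiles (0.994 to 1.07), which left 5 above 1. Over all rows compared, 29.4% lay wholly above 1 and 29.2% wholly below, so counting intervals clear of 1 were common in this pair of libraries. Those rows include ones with fewer counts than any of the 9 genes. Fewer counts give wider intervals, so these shares are not matched to the 9 in depth.

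Among the 9549 rows with at least 1000 counts, the middle 50% of log2 ratios ran from -0.13 to 0.12 and the central 95% from -0.56 to 0.85, with an SD of 0.39. The 9 genes ran from -0.10 to 0.25 with an SD of 0.13, and their median absolute log2 ratio was 0.10 against 0.12 for those rows. Bgn (log2 ratio 0.20), Dcn (0.18), Fmod (0.17) and Podn (0.25) were above the upper quartile of those rows, and 0 of the 9 lay outside the central 95%. Omd, with 260 and 251 counts, does not itself reach 1000 counts. Among rows within 2-fold of its own total count, Podn stood at percentile 84.9, Dcn at 84.2, Bgn at 76.9 (of only 65 rows), Lum at 45.4 and Ogn at 18.0. Aspn stood at 65.2, Prelp at 64.4, Fmod at 64.3 (of only 42 rows) and Omd at 42.6. The summed CPM of the family was 5638 untreated and 6318 after PTH, a ratio of 1.12 (1.12 to 1.13). That sum is mostly 2 genes, since Fmod and Bgn made up 85.1% of the family's counts untreated and 86.2% after PTH.

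**Figure D3:**
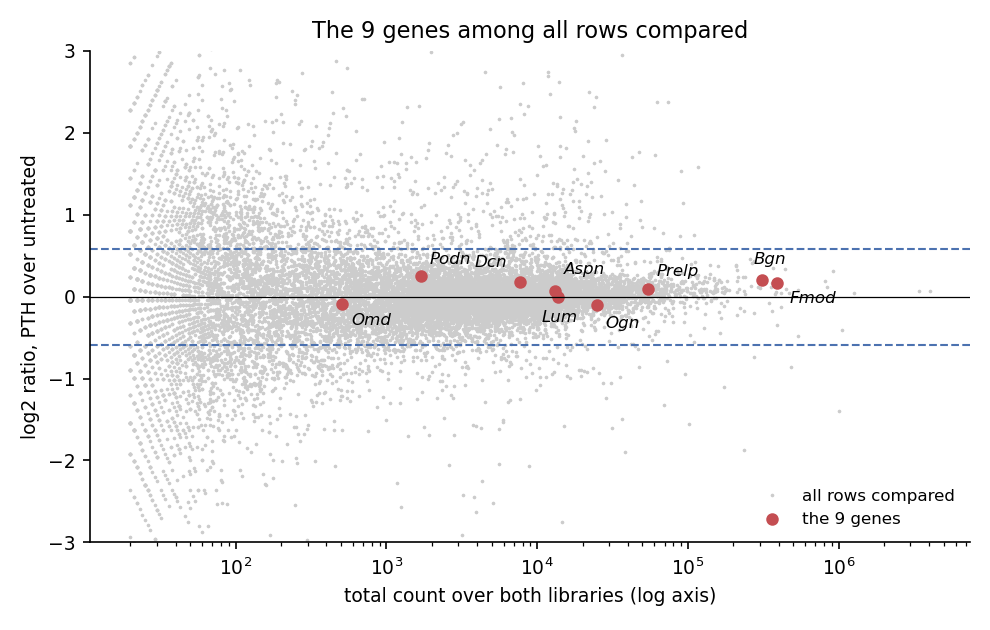
Log2 ratio, PTH over untreated, against the total count over both libraries (log axis) for all 16408 rows compared (grey points, 261 of them beyond the plotted range) and the 9 genes (red). The 9 genes lie between -0.10 and 0.25, inside the dashed lines at 1.5-fold.

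Several of these genes lie side by side, and positions below are from GENCODE release M21 on GRCm38, the assembly also called mm10. On chromosome 10, Dcn (97479609 to 97518143) and Lum (97565128 to 97572703) lie 47.0 kb apart on the plus strand, followed by the related genes Kera and Epyc, both listed at 0 in both libraries. The count ratio of Lum to Dcn went from 1.89 to 1.67, a change of 0.882 (0.834 to 0.932), so these neighbours differed slightly in their ratios. On chromosome 13, Aspn (49544443 to 49567565), Omd (49582462 to 49592822) and Ogn (49608046 to 49624501) follow each other within a 120 kb block on the plus strand that starts with Ecm2. Ogn went from 2.02 to 1.80 counts per count of Aspn, a change of 0.890 (0.853 to 0.929), and Ogn against Omd was at a change of 0.995 (0.835 to 1.19). Cenpp, a centromere protein gene on the minus strand, overlaps the spans of all 3 and was at a ratio of 0.912 (0.822 to 1.01). Its exons overlap 0.297% of the exonic length of Aspn and none of that of Omd and Ogn.

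On chromosome 1, Prelp (133910304 to 133921414, minus strand) lies between Optc and Fmod (134037254 to 134048277, plus strand). Fmod had 6.91 counts per count of Prelp untreated and 7.29 after PTH, a change of 1.05 (1.04 to 1.07). Of the exonic length of Prelp, 9.68% lies opposite exons of the gene model Gm15851, and the sources used here do not state whether counting used strand. The nearest compared neighbour of Fmod on its other side, Btg2, an antiproliferative gene 26.9 kb away, was at a ratio of 1.46 (1.43 to 1.5). Bgn is on chromosome X (73483602 to 73495933) between Haus7, at a ratio of 1.04 (0.981 to 1.10), and Dusp9, with 19 and 30 counts. Podn is on chromosome 4 (108014791 to 108096445, minus strand). Its annotated span overlaps that of Scp2, a sterol carrier gene at a ratio of 1.13 (1.07 to 1.20). Next to Ogn, the nucleolar gene Nol8 was at 0.724 (0.678 to 0.774), and Btg1, the nearest compared gene before Dcn at 857 kb, was at 1.31 (1.26 to 1.35). The other nearest neighbours, Cpt2, Echdc2, Atp2b1 and Gm1627, were at 0.905, 0.993, 1.04 and 1.37. None of these neighbours was beyond 1.5-fold except Optc.

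Promoter windows of 250 bases before to 50 after the annotated start were taken from RefSeq on GRCm38.p6 and matched by symbol for 7 of the 9 genes, all but Dcn and Lum, with a second window for Podn. The RefSeq starts of the Podn windows lie 65459 and 64491 bases inside the GENCODE start of Podn, and that of Ogn at -31 from its GENCODE start. Since the hormone acts through cyclic AMP, the windows were searched on both strands for the cyclic AMP response element TGACGTCA and for the shorter TGACG contained in it. Neither was in any of the 8 windows, where 1.79% and 20.8% of the 32851 windows in the whole table hold them. The letters TGTGGT, bound by RUNX factors, were in the window of Ogn, at position -65 from the start, and in 16.8% of all windows. The letters TATAAA were in the windows of Ogn (-229 and -227) and Aspn (-207 and -178), and in 13.6% of all windows. A match is a description of the letters, and its absence says only that they are not in this window.

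The 250 bases before the start are shown for the genes with most counts, Fmod and Bgn, and for Ogn, whose interval lay below 1, with any match in capitals (for Ogn, overlapping matches to TATAAA on both strands and then the reverse complement of TGTGGT). They lie at chr1:134037004-134037253, chrX:73483351-73483600 and chr13:49607765-49608014, all on the plus strand. The full windows differ in base composition, with 51.0% G and C for Fmod, 63.7% for Bgn and 42.3% for Ogn, beside a median of 52.7% over all windows.
Fmod: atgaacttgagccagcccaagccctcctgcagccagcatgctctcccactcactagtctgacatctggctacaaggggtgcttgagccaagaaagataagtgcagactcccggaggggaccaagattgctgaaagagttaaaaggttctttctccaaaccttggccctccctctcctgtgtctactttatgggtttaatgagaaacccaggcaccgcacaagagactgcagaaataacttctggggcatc
Bgn: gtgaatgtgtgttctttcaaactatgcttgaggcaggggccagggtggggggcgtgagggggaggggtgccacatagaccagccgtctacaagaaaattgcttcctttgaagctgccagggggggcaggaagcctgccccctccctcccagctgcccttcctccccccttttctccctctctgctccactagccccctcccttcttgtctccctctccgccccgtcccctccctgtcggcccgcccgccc
Ogn: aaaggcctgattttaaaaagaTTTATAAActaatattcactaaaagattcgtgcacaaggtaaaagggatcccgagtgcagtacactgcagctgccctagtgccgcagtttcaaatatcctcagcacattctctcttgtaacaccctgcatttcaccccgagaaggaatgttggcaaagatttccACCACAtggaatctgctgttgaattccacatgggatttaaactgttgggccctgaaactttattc

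Of 9 further genes of the family, 6 had enough counts to compare. Of the 6, 1, Optc, was beyond 1.5-fold lower, beside 3.54% of all rows compared. Optc, which encodes opticin of the eye's vitreous, lies 2.3 kb from Prelp and had 81 counts untreated and 35 after PTH, a ratio of 0.420 (0.274 to 0.631). It was not beyond 1.5-fold with the widened interval. Tsku, which encodes the secreted signalling modulator tsukushi, had 1762 and 1557 counts, a ratio of 0.858 (0.801 to 0.919), and Podnl1, the closest relative of Podn, 1465 and 1400 counts, a ratio of 0.928 (0.862 to 0.999). Ecm2 was at 1.09 (0.948 to 1.27), and Chad, which encodes chondroadherin, at 2.11 (1.26 to 3.63) from 23 and 50 counts. Chadl was at 0.647 (0.453 to 0.919) from 84 and 56 counts, and opposite-strand exons overlap 19.5% of it. Nyx had 7 and 12 counts and was not compared.

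The genes that build and sulfate the sugar chains were also mostly close to 1. Over all rows compared, 5.39% were beyond 1.5-fold higher and 3.54% lower. Of 7 enzymes that link the chain to the core protein, 0 were beyond 1.5-fold, and Fam20b, the xylose kinase, was at 1.02 (0.994 to 1.05), Xylt2, a xylosyltransferase, at 0.988 (0.926 to 1.05) and B3gat3 at 0.972 (0.917 to 1.03). Of 15 chondroitin and dermatan sulfate enzymes, 14 were neither higher nor lower. Chpf, a chondroitin polymerising factor, was at 1.08 (1.06 to 1.11) and Dse, the dermatan sulfate epimerase, at 0.909 (0.884 to 0.936). The other one, Csgalnact1, went from 24 counts to a listed 0, and no fold is given. Of 5 keratan sulfate enzymes and 7 sulfate supply genes, 0 were beyond 1.5-fold, with B4galt1, a galactosyltransferase, at 1.15 (1.11 to 1.18) and Papss1, a sulfate donor synthase, at 1.09 (1.06 to 1.13). The median log2 ratios of these 4 lists were 0.00, -0.02, 0.04 and 0.10. The whole interval lay within 1.5-fold for 5 of 7, 11 of 15, 3 of 5 and 6 of 7 genes. Among those not within it were Chst3 at 0.636 (0.562 to 0.718) and B4galt4 at 1.51 (1.32 to 1.74). Also not within it were B3galt6 at 0.757, Chst7 at 0.743 and, from 16 and 4 counts, Chst13 at 0.243 (0.0591 to 0.753). The same held at low counts for Xylt1 (30 and 47), Chst1 (16 and 17) and Slc26a1 (15 and 13).

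Of the 12 collagens that these proteins bind, 0 were beyond 1.5-fold, beside 5.39% higher and 3.54% lower of all rows compared. Their median log2 ratio was 0.08, and 11 of the 12 lay wholly within 1.5-fold. The one that did not was Col14a1, at 1.94 (0.903 to 4.44) from 11 and 22 counts. Of those within it, Col2a1 was at 1.35 (1.33 to 1.37). Col1a1 was at 1.050 (1.048 to 1.052), Col1a2 at 1.046 (1.044 to 1.048) and Col12a1, a fibril-associated collagen, at 1.05 (1.05 to 1.06). Of 11 proteases that process or cut the family or its partners, 0 were beyond 1.5-fold, beside the same shares of all rows. Adamts1 was at 0.922 (0.913 to 0.931), Mmp2 at 1.09 (1.08 to 1.11) and Pcolce, the procollagen processing enhancer, at 1.07 (1.06 to 1.08). The whole interval lay within 1.5-fold for 10 of the 11, but not for Mmp9, at 0.534 (0.338 to 0.830) from 60 and 33 counts.

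**Figure D4:**
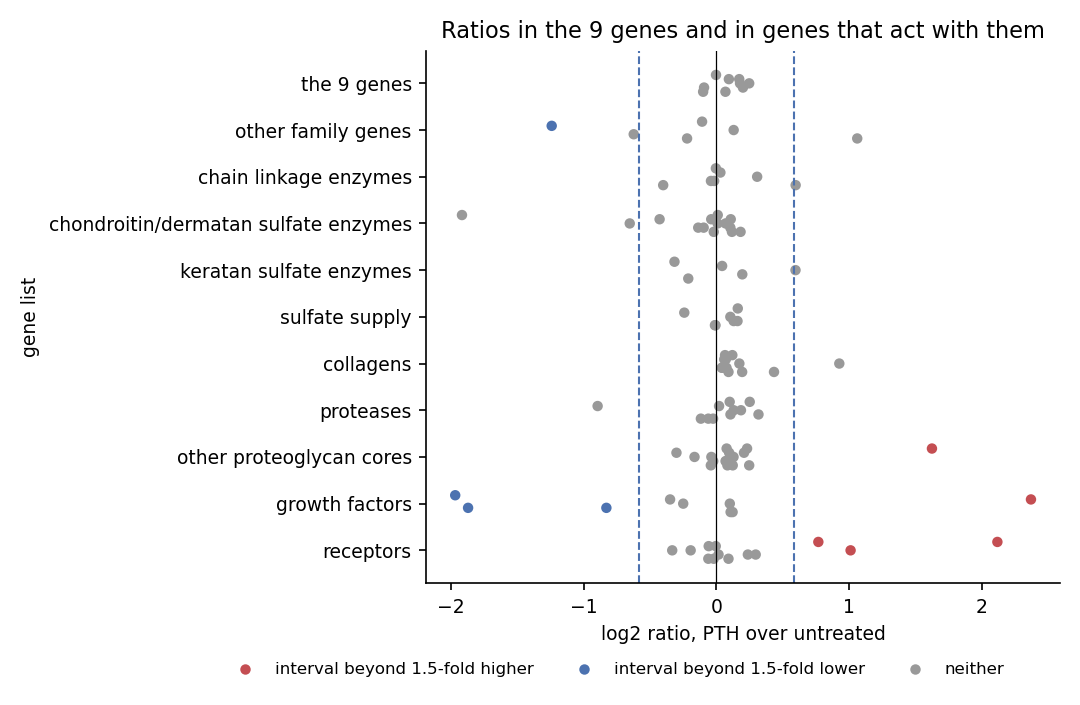
Log2 ratio, PTH over untreated, of each gene with a total count of 20 or more and a count in both libraries, by list; red points had more and blue points fewer reads with the whole interval beyond 1.5-fold, and dashed lines mark 1.5-fold. None of the 9 genes is coloured, and the coloured points are 1 other family gene (Optc), 1 other proteoglycan core gene, 4 growth factor genes and 3 receptor genes.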

How the data were processed

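RNA of 1 untreated and 1 PTH-treated MC3T3-E1 library was counted per gene. The authors deposited counts as whole numbers, not normalised. Per the submitters' processing notes, HISAT2 and the mm10 build were used, while the sources used here do not give the HISAT2 version, counting tool, annotation or use of strand. If counts were derived from coverage, counting intervals may be too narrow or too wide.

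Counts were scaled by edgeR 4.0.16 TMM effective library sizes (R 4.3.3) from the 16408 rows whose summed count was at least 20. With 1 library per group, a quasi-likelihood fit in edgeR was not possible. Ratios have 95% exact conditional (Clopper-Pearson) intervals (Python 3.11.15, scipy 1.17.1, numpy 2.4.6, pandas 2.3.3). Reads copied by PCR are not independent, so intervals cover counting error only. Ratios between genes have normal log-scale intervals, as do the widened intervals. For log2 ratios and widened intervals 0.5 count was added. At low counts an end of the widened interval can therefore lie inside the exact interval. GENCODE M21 matched 55227 identifiers and gave lengths and positions. Figures used matplotlib 3.10.9. The interval was tested on simulated counts that had counting error only, the error it assumes. That test therefore cannot show how the interval performs with variation between cultures.

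Named are the 9 genes, further family genes, nearest neighbours and, per list, genes among the 3 farthest beyond 1.5-fold and the 3 with most counts; other genes, such as marker genes at 0, were picked after their values were seen. The members and lists were chosen with earlier results of these data known. No gene was named for a like pattern, since 2 libraries give 1 ratio per gene. Alternatives were scaling by total counts, DESeq2 1.42.0 size factors or upper quartiles, other filters and fold limits, and widened intervals.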

Additional observations from a re-analysis of the deposited data

How the results depend on the processing

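The count of the 9 genes beyond the fold limit was 0 under all 9 alternatives run (3 other scalings, 2 other filters, 2 other fold limits and intervals widened for a coefficient of variation of 0.1 or 0.2). Over the 5 other scalings and filters, which alone can move a ratio, the 45 recomputed ratios ran from 0.910 to 1.19, and 1 crossed 1: Lum was at 1.0001 with a filter of 100 counts. The interval of Aspn held 1 with total-count and upper-quartile scaling. Leaving out a library was not possible with 1 per group. The number of genes with the whole interval within 1.5-fold was 7 with a coefficient of variation of 0.1 and 0 with 0.2, both assumed values, since the variation between cultures is unknown. With the lower fold limit it was 7 from counting error alone, the interval of Podn reaching 1.31 and that of Omd 0.785. The share of all rows beyond the fold limit was 8.93%, and became 16.5% with the lower limit, 4.75% with a limit of 2 and 4.52% with a coefficient of variation of 0.2; the cause lies in how each alternative is built. With median coding transcript length, chosen after seeing the data, levels in CPM per kb, untreated and then after PTH, became 3.95 and 4.69 for Podn, 1057 and 1214 for Bgn, 30.2 and 34.2 for Dcn, 1471 and 1657 for Fmod and 2.03 and 1.91 for Omd.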

Other observations

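Of 9 genes for growth factors bound or modulated by the family, 1 was beyond 1.5-fold higher and 3 beyond 1.5-fold lower after PTH, where 5.39% and 3.54% of all rows compared were, with a median log2 ratio of -0.25, beside 0.00 over all rows compared. Vegfa, an angiogenic factor that decorin can restrain, had 11753 counts untreated and 62585 after PTH. Ccn2, a matrix-associated factor, had 183304 and 51610 counts, and opposite-strand exons overlap 23.2% of it. Pdgfb had 199 and 52 counts, a ratio of 0.254 (0.183 to 0.346). Tgfb2, one of the TGF-beta ligands that decorin and biglycan bind, had 9822 and 5692 counts, a ratio of 0.563 (0.545 to 0.582), while Tgfb1 was at 1.08 (1.03 to 1.12) and Tgfb3 at 0.841 (0.825 to 0.857). Tgfb2 was not beyond 1.5-fold with the widened interval.

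Of 13 receptor genes, 3 were beyond 1.5-fold higher, beside 5.39% of all rows compared, and 10 lay wholly within 1.5-fold. Tgfbr2, a TGF-beta receptor, had 10791 and 18920 counts, a ratio of 1.70 (1.66 to 1.74). Met, the hepatocyte growth factor receptor that decorin binds, had 470 and 976 counts, a ratio of 2.02 (1.80 to 2.26). Itga2, a collagen-binding integrin subunit, had 7 and 33 counts. Lrp1, an endocytic receptor, was at 1.18 (1.17 to 1.19) and Itgb1 at 0.986 (0.977 to 0.996). Tlr2 and Tlr4, receptors for free biglycan, were at 1.23 (1.09 to 1.38) and 0.794 (0.686 to 0.917). With the widened interval, Itga2 was the 1 receptor gene still beyond 1.5-fold (1.65 to 11.4, beside 1.99 to 12.3 from counting error).

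Of 16 other proteoglycan core genes, Prg4, which encodes lubricin, was the 1 beyond 1.5-fold, with 11 and 36 counts, a ratio of 3.18 (1.58 to 6.92), beside 5.39% higher of all rows compared. Prg4 was not beyond 1.5-fold with the widened interval (1.30 to 7.31). The perlecan gene Hspg2 was at 1.07 (1.06 to 1.08), the glypican gene Gpc1 at 1.17 (1.16 to 1.19) and the syndecan gene Sdc3 at 0.974 (0.959 to 0.989).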
